A study of Homo sapiens with 4 samples.

Results

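The genes described here code for actin, myosin and actin-binding proteins of smooth muscle, some of which are also found in other cells. They are *ACTG2*, *ACTA2*, *TAGLN*, *CNN1*, *CNN2*, *MYL9*, *TPM1*, *TPM2* and *ACTN1*. On the array they are represented by every probe whose gene name in the scanner output equals 1 of these 9 symbols, which gave 14 of the 58185 probes analysed and 9 of 43311 gene names. 5 genes had 1 probe, 3 had 2 probes and *TPM1* had 3. The 9 genes were chosen by their function, but with the AZA/vehicle ratios of these same arrays already known, so those ratios and the counts of genes passing a threshold describe the set and support nothing about it.

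RNA came from MDS-L cells, the parent line, established from a myelodysplastic syndrome (MDS), and from MDS-L/CDA cells, a derivative made resistant to azacitidine (AZA) by transducing CDA, a deaminase of cytidine analogues. Each line was grown with interleukin-3 and treated for 72 h with vehicle, which was 0.1% DMSO, or with AZA, a cytidine analogue that traps DNA methyltransferases, and each of the 4 conditions was measured on 1 array. The titles give the AZA dose as 1 mM and other fields and the methods as 1 μM, which was taken. The treatment field of the MDS-L AZA and MDS-L/CDA vehicle arrays also names the opposite treatment from their titles, descriptions and source names, which were followed. Whether MDS-L/CDA is a single clone is not given in the sources used here.

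With 1 array per condition no difference has a replicate check, and conditions carry neither a test nor an error. Signals are given as multiples of the 75th percentile of their array ("scaled signal"). That percentile was between 37.3 and 52.9 intensity units, and between 32.6% and 36.5% of probes carried the software's flag for signal well above background. The lowest scaled signal carrying that flag was 0.190 on both arrays of the parent line, and 0.272 with vehicle and 0.296 with AZA in MDS-L/CDA cells, so a dim gene could be measured less far down in MDS-L/CDA cells. Each member probe has a single spot on the array. The only technical spread comes from other probes with at least 5 spots, with a median SD from 0.12 to 0.20 in log2 units, which covers neither hybridization nor culture. The *CDA* probe stayed below background throughout (scaled signals 0.0943 to 0.146), so it checks nothing about the transduced line.

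In smooth muscle, thin filaments of the actins encoded by *ACTA2* and *ACTG2* are pulled by myosin whose activity is set by phosphorylation of a regulatory light chain, the product of *MYL9*. Tropomyosins (*TPM1*, *TPM2*) lie along the filament, transgelin (*TAGLN*) and calponins (*CNN1*, *CNN2*) bind it, and alpha-actinin (*ACTN1*) cross-links it. Many of these genes are controlled by serum response factor (SRF), which binds a promoter element named the CArG box and works with the coactivators myocardin (*MYOCD*) and MKL1 and MKL2. Blood cells are not smooth muscle, but megakaryocytes and platelets use several of the same proteins, *MYL9*, *TPM1* and *ACTN1* among them.

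Of the 9 genes, 3 were called increased with AZA in MDS-L cells (*ACTG2*, *MYL9* and *TPM1*) and 2 in MDS-L/CDA cells (*ACTG2* and *TPM1*), and 0 were called decreased in either line. A call needed 1 probe of the gene with a ratio of 2 or more (or, for a decrease, the inverse or less) and a Z score of at least 2 in the same direction, and a signal well above background on the brighter array. The dimmer signal entered as it was, also below background, so a called ratio can be larger than its bound. With such signals raised to the floor, the lowest signal flagged on that array, the same genes were called with AZA, 3 and 2. The Z score is a log2 ratio in units of the SD found among probes of like mean signal, in 10 bins. Of the member probes well above background on at least 1 array of the pair, 3 of 12 were called increased in MDS-L cells, where the rule called 3.88% of all such probes increased and 2.57% decreased. In MDS-L/CDA cells it called 3 of 10 member probes increased, with 1.98% of all such probes increased and 2.95% decreased. Scaling to the array median in place of the 75th percentile moves every log2 ratio of MDS-L cells by −0.54, and those of MDS-L/CDA cells by −0.06. The choice of the genes used these ratios, so nothing is read from the difference between these shares. The arrays measure RNA of whole cultures, in which more cells of a kind and more RNA per cell cannot be told apart.

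**Figure D1:**
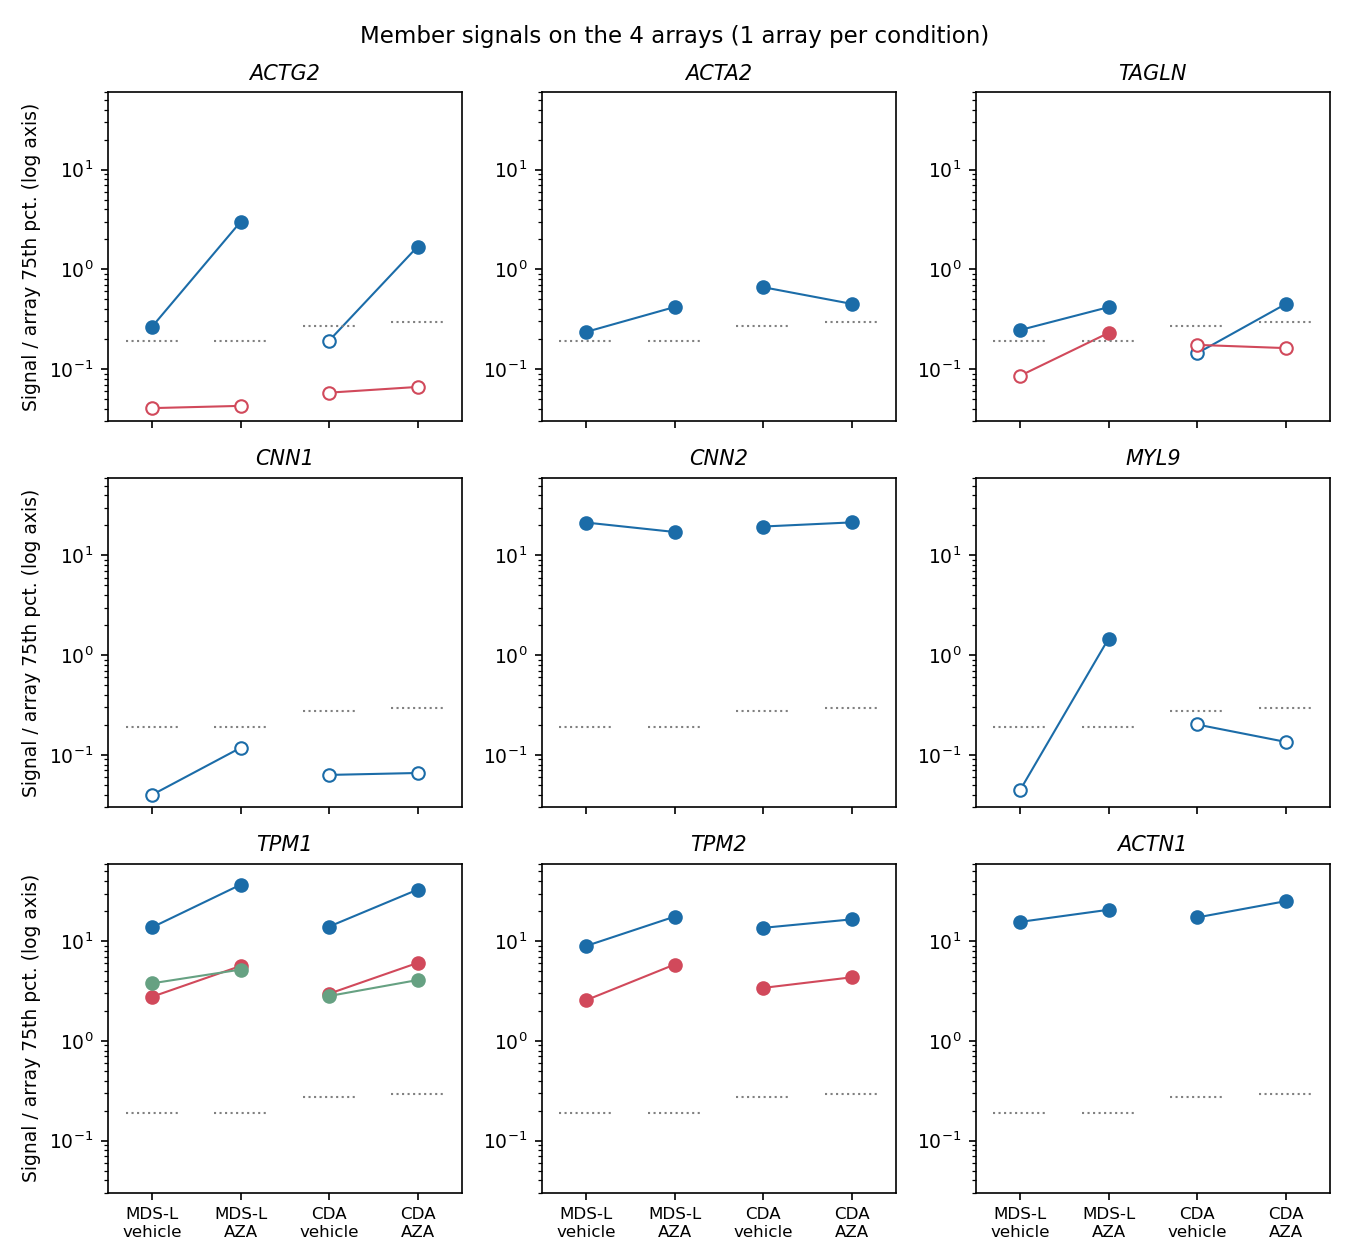
Scaled signal (log axis, multiple of the array's 75th percentile) of every probe of the 9 genes on the 4 arrays, 1 colour per probe. Filled points were well above background and open points were not. The dotted line is the floor of each array. *ACTG2* (0.266 to 2.99 in MDS-L) and the upper *TPM1* probe step up with AZA in both lines, *MYL9* is filled only in MDS-L AZA, and all *CNN1* points are open.

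Of the smooth-muscle actins, *ACTG2* was called increased with AZA in both lines and *ACTA2* in neither. *ACTG2* encodes the gamma actin of enteric smooth muscle. Its brighter probe (hg19 chr2:74146700-74146759, plus strand) had a scaled signal of 0.266 with vehicle and 2.99 with AZA in the parent line, and 0.192 and 1.69 in MDS-L/CDA. Both AZA arrays were high and both vehicle arrays near the floor, and the vehicle array of MDS-L/CDA was not well above background. The AZA/vehicle ratio was 11.3 in the parent line and at least 6.20-fold in MDS-L/CDA cells, where the floor of the vehicle array stands in for the unmeasured signal. Normexp correction of the background was run with 50 intensity units added to every signal, so dim probes give smaller ratios. With it the *ACTG2* log2 ratio was 1.63 in MDS-L cells, where the call was kept. In MDS-L/CDA cells it was 0.98, and the call was lost there. The second *ACTG2* probe, designed on AK310215, was below background on all 4 arrays.

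*ACTA2* encodes the alpha actin of vascular smooth muscle. Its probe was dim but well above background on all 4 arrays, and its sequence is shown because it is the only actin probe of the set that was measured everywhere:

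ACTA2 (hg19 chr10:90697899-90697958, minus strand): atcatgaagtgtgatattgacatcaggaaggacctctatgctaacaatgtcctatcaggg

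It shares at most 7 bases in a row with the brighter *ACTG2* probe, and no run of 15 or more with a probe of another gene. How far it binds transcripts of the other actins was not tested. The scaled signal of *ACTA2* was 0.236 with vehicle and 0.419 with AZA in the parent line, and 0.663 and 0.451 in MDS-L/CDA. AZA was the higher array in MDS-L cells (log2 ratio 0.83) and the lower in MDS-L/CDA cells (−0.56), and neither passed the rule. With normexp correction these log2 ratios were 0.20 and −0.10, so their size depends on the background correction and the 50 units it added. In MDS-L cells a probe of this brightness had to reach a 5.08-fold ratio to have a Z score of 2, against 2.25-fold in MDS-L/CDA cells.

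*MYL9*, the regulatory light chain, was measured on 1 array alone. Its scaled signal was 1.46 in MDS-L AZA. On the other 3 arrays it was not well above background, with values of 0.0441 with vehicle in the parent line, and 0.202 with vehicle and 0.135 with AZA in MDS-L/CDA cells. It was at least 7.69-fold higher with AZA than with vehicle in MDS-L cells, and no fold can be given in MDS-L/CDA cells. With normexp correction its log2 ratio in MDS-L cells was 1.02, and the call was kept. The 50 units added there shrink the ratio of so dim a probe, so 1.02 cannot be set against that bound (2.94 as log2). Whether the lines differ in their *MYL9* ratio was not tested. The probe shares at most 8 bases in a row with any other member probe, and no run of 15 or more with a probe of another gene. How far it binds transcripts of other myosin light chains was not tested. Its sequence is given since a single spot of it carries the finding:

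MYL9 (hg19 chr20:35177541-35177600, plus strand): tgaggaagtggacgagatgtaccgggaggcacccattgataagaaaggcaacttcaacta

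By a fixed rule, the genes most like the *MYL9* probe, which had the widest range of the member probes over the 4 arrays, were sought among the 1397 features well above background on the MDS-L AZA array alone, by the root mean square difference of mean-centred log2 signals over the 4 arrays. They were *PACSIN1* (0.31), *UMODL1* (0.32), *LMNA* (0.33), *S100A6* (0.35) and *TBX1* (0.37). On 3 of the 4 arrays these signals are below background, so the likeness rests mainly on the MDS-L AZA array. For *ACTG2*, a search added after its values were seen, among 464 features measured on the same 3 arrays as its brighter probe, gave *IER3* (0.51), *ANXA8L1* (0.54), *CLEC3B* (0.54), *RGS1* (0.69) and *CD36* (0.69).

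All probes of the tropomyosins were well above background on the 4 arrays. *TPM1*, the alpha-tropomyosin gene, was called increased with AZA in both lines and *TPM2* in neither. The brightest *TPM1* probe (hg19 chr15:63363361-63363420, plus strand) had a scaled signal of 13.8 with vehicle and 36.8 with AZA in the parent line, and 14.0 and 32.8 in MDS-L/CDA. The vehicle arrays of the 2 lines were alike, with a log2 ratio of 0.02, and both AZA arrays were higher, at ratios of 2.68 in the parent line and 2.35 in MDS-L/CDA cells, both called increased. When array medians were used for scaling, the log2 ratio of *TPM1* in MDS-L cells was 0.88 and the call was lost. The longest run of bases that this probe shared with a probe of another gene was 19, with *HDAC4*.

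The other 2 *TPM1* probes lie next to each other on the transcript and share 26 bases, printed in capitals, and their sequences are shown because they share these bases and gave different ratios. The first lies within a continuous stretch of the genome, and the second crosses an exon junction, its 60 bases spanning 1001 bases of the genome:

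TPM1, continuous probe (hg19 chr15:63354416-63354475, plus strand): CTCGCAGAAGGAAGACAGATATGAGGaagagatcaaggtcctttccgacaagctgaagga
TPM1, junction probe (hg19 chr15:63353441-63354441, plus strand): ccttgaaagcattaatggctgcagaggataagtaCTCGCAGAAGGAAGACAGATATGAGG

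The continuous probe had a scaled signal of 2.77 with vehicle and 5.64 with AZA in the parent line, and 2.97 and 6.05 in MDS-L/CDA. Its log2 ratio was 1.03 in both lines. In MDS-L cells its ratio of 2.04 had a Z score of 1.49, and a ratio of 2.60 was needed at this brightness, so it was not called there. In MDS-L/CDA cells it was just inside the rule, with a Z score of 2.10. The junction probe had scaled signals of 3.78, 5.19, 2.82 and 4.07 in the same order, and log2 ratios of 0.46 and 0.53 that passed in neither line. The 3 *TPM1* probes thus had the same order of ratios in both lines, and all were above 1, except that the junction probe had a log2 ratio of −0.08 in MDS-L cells with scaling to the array median. Which *TPM1* transcripts each probe reads was not tested.

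*TPM2* codes for beta-tropomyosin, and both of its probes were higher with AZA in MDS-L cells by about 2-fold. The brighter probe (hg19 chr9:35682088-35682147, minus strand) had a scaled signal of 8.94 with vehicle and 17.6 with AZA in the parent line, and 13.6 and 16.5 in MDS-L/CDA. MDS-L vehicle was the low array of the 4. Its AZA/vehicle ratio in MDS-L cells was 1.97 with a Z score of 1.95, just outside the rule, and 1.22 in MDS-L/CDA cells. The second probe (hg19 chr9:35684244-35684303, minus strand) had scaled signals of 2.56 with vehicle and 5.82 with AZA in the parent line, and 3.40 and 4.34 in MDS-L/CDA cells. Its ratios were 2.28 (Z score 1.72, with 2.60 needed) and 1.28. *TPM2* was called increased in MDS-L cells with quantile normalization over the 4 arrays, in the authors' value table and with scaling to spike-in probes, and not under the other normalizations.

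Transgelin and the calponins were called in neither line, and apart from *CNN2* they were near or below the floor. *TAGLN*, an early marker of smooth-muscle differentiation, had on its brighter probe (hg19 chr11:117075155-117075214, plus strand) scaled signals of 0.246 with vehicle and 0.418 with AZA in the parent line, and 0.448 with AZA in MDS-L/CDA, where the vehicle signal (0.144) was not well above background. The ratio was 1.70 in the parent line and at least 1.65-fold in MDS-L/CDA cells, and *TAGLN* passed the rule in neither, although it did in MDS-L/CDA cells when the authors' value table was used. Its second probe, which crosses an exon junction, was well above background only in MDS-L AZA, at 0.230, near the floor of that array.

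*CNN1*, the calponin of differentiated smooth muscle, was below background on all 4 arrays, with scaled signals between 0.0397 and 0.118. *CNN2*, the calponin found outside muscle as well, was well above background on all of them, at 21.3 with vehicle and 17.2 with AZA in the parent line, and 19.5 and 21.4 in MDS-L/CDA. Its log2 ratio was −0.31 in the parent line and 0.14 in MDS-L/CDA cells, neither near the threshold, and the latter is inside the spread between spots (0.25 for a log2 ratio in that line). *ACTN1*, the cross-linker, was so too, at 15.6, 20.6, 17.3 and 25.2 in the same order, with log2 ratios of 0.40 and 0.54. With scaling to the median, *ACTN1* in MDS-L cells had a log2 ratio of −0.14, so its direction there depends on the scaling.

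**Figure D2:**
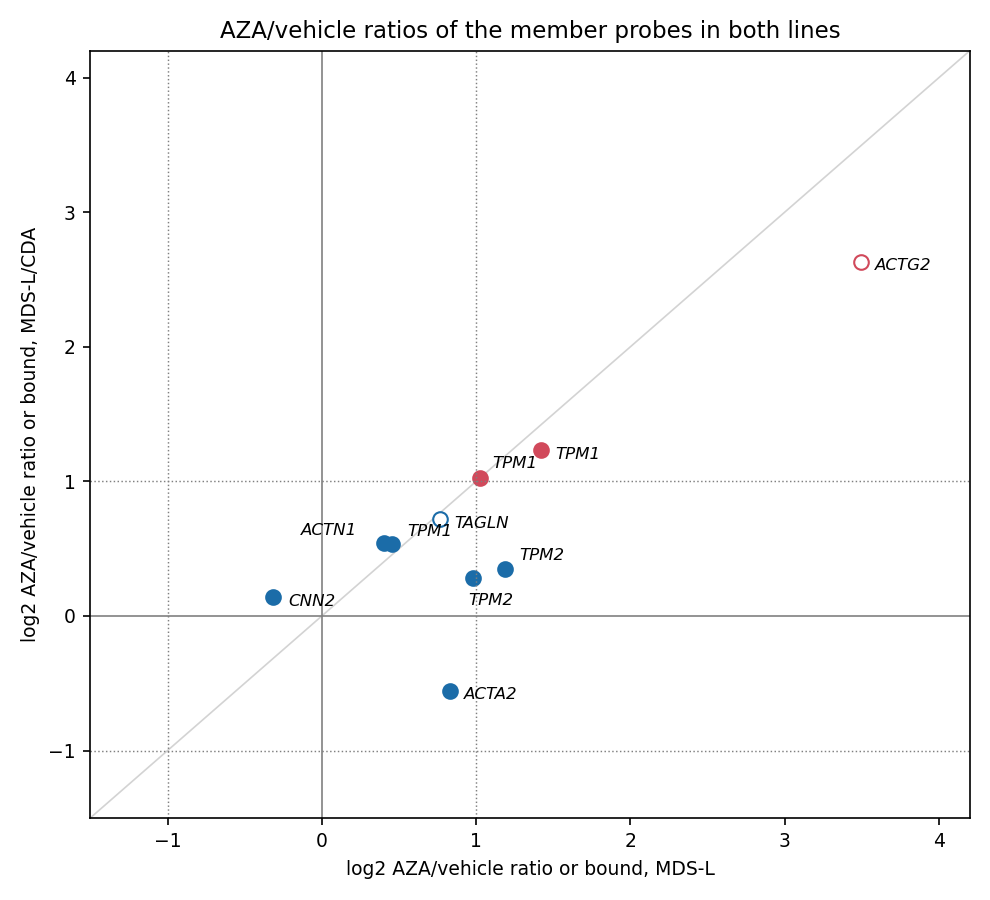
Log2 AZA/vehicle ratio of member probes in MDS-L (horizontal) and MDS-L/CDA cells (vertical). Red marks probes called increased in at least 1 line, blue the others, and open points are plotted at their bound in MDS-L/CDA cells, where the vehicle signal was not well above background. Dotted lines mark 2-fold, the grey diagonal marks equal ratios. The called *TPM1* probes lie near the diagonal, and *ACTG2*, at 2.63 or more on the vertical axis, lies farthest from the origin. *MYL9*, *CNN1* and the second probes of *ACTG2* and *TAGLN* have no fold in at least 1 line and are not drawn.

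Over the members, taking the brightest probe of each gene that either array of the pair measured, the median log2 ratio was 0.90 over 8 genes in MDS-L cells, where it was −0.12 over the 22261 probes so measured, and 7 of the 8 genes were above a ratio of 1 (*ACTN1* was not with scaling to the median). The MDS-L/CDA median was 0.54 over 7 genes, against 0.01 over 19871 probes, and 6 of the 7 were above 1. With genes measured on 1 array at their bound, both medians were the same. For genes measured on both arrays it was 0.83 over 7 genes and 0.28 over 5 genes. A ratio of at least 2 without the Z score was reached by 5 genes in MDS-L cells (*TAGLN* and *TPM2* besides the 3) and by 3 in MDS-L/CDA cells (*TAGLN* besides the 2). Counted as probes it was reached by 6 of 12 member probes in MDS-L and 4 of 10 in MDS-L/CDA cells, beside 9.64% and 3.9% of all such probes. *TAGLN* was among these genes only through signals below background, with bounds of at least 1.21-fold and 1.65-fold.

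Between the vehicle arrays of the 2 lines, 0 of 10 member probes were called higher or lower in MDS-L/CDA than in MDS-L cells, where the rule called 1.27% of all such probes higher and 2.84% lower. *ACTA2* had the widest difference of the members measured on both arrays, with a ratio of 2.81 and a Z score of 1.65. *TPM2* followed at 1.52, and *ACTN1*, *TPM1* and *CNN2* lay between 0.912 and 1.11. *ACTG2* and *TAGLN* were below background in MDS-L/CDA vehicle and just above the floor in MDS-L vehicle, so neither has a fold. Scaling to the median shifted the median log2 ratio of all probes in this comparison by −0.52 and gave *TPM1* and *ACTN1* log2 ratios of −0.50 and −0.37, so their directions are not settled.

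Regulators of the SRF pathway, a list of 15 genes, were almost all measured and almost all outside the rule. 14 were well above background on at least 1 array of each pair, 1 was called increased in the parent line and 0 in MDS-L/CDA cells, and the median log2 ratio of those measured on both arrays was 0.08 and 0.22, beside −0.15 and 0.01 for all probes so measured. *RHOC*, whose product takes part in actin assembly, was the 1 called gene. Its scaled signal was 15.5 with vehicle and 40.6 with AZA in the parent line, and 18.4 and 28.9 in MDS-L/CDA, which gave log2 ratios of 1.39 and 0.65. *SRF* itself had log2 ratios of 0.01 and 0.73, *MKL1* of 0.15 and 0.31, and *MKL2* of −0.67 and −0.51. *MYOCD*, the coactivator specific to cardiac and smooth muscle, was below background everywhere. *RHOA* (−0.19 and 0.10), *RHOB* (0.76 in MDS-L cells), *ROCK1* (0.19 and −0.10), *ROCK2* (−0.14 and −0.18), *DIAPH1* (−0.40 and 0.14), *LIMK1* (−0.59 and 0.00), *LIMK2* (0.41 and 0.34), *ELK1* (−0.17 and 0.58), *ELK3* (0.95 and 1.03) and *ELK4* (0.38 and 0.22) were not called either. The AZA signal of *RHOB* in MDS-L/CDA cells was not well above background. This list and those below were chosen with earlier results of these data known, so their called counts are descriptions. Of all probes well above background on at least 1 array of the pair, the rule called 3.88% increased and 2.57% decreased in MDS-L cells. In MDS-L/CDA cells these shares were 1.98% and 2.95%.

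Among 24 other cytoskeletal targets of SRF, 2 were called increased and 0 decreased in MDS-L cells, and 0 increased and 2 decreased in MDS-L/CDA cells. *GSN*, which severs actin filaments, had a scaled signal of 1.25 in MDS-L vehicle and 5.27 in MDS-L AZA, a ratio of 4.22. *FHL2*, a LIM-domain protein, had a ratio of 2.73 in MDS-L cells. In MDS-L/CDA cells *PDLIM5* had a ratio of 0.484, and *CFL2*, a muscle cofilin, was called although its bound is only at least 1.14-fold lower with AZA, where it was not well above background. Genes of this list measured on both arrays had a median log2 ratio of 0.14 in the parent line and 0.18 in MDS-L/CDA cells. *CSRP2* was called higher in MDS-L/CDA than in MDS-L vehicle, at a ratio of 3.16.

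The other genes of the contractile apparatus did not pass the rule. Of 19 further smooth-muscle genes, 0 were called in either line, and only 8 in MDS-L and 7 in MDS-L/CDA cells were well above background on at least 1 array of the pair. *MYLK*, the kinase that phosphorylates the myosin light chain, was singled out after its values were seen. It was below background with vehicle in both lines and was at least 4.66-fold higher with AZA in the parent line and at least 1.62-fold higher in MDS-L/CDA cells, and it passed the Z score in neither. Of 5 other actins, 0 were called, and *ACTB* had scaled signals of 809, 557, 625 and 490 in the order used above. Of 14 nonmuscle paralogs of the members, 0 were called, with median log2 ratios of 0.08 and 0.23 over the 10 measured on both arrays in each line. These included *MYL12A* (0.70 and 0.33), *MYL6* (−0.70 and 0.49), *TPM4* (0.42 and 0.60) and *TAGLN2* (0.21 and 0.40), named after their values were seen.

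Transforming growth factor beta is a known inducer of smooth-muscle genes. Of 15 genes of its signalling, 3 were called increased and 0 decreased in MDS-L cells, and 1 increased and 1 decreased in MDS-L/CDA cells. *SKIL* and *SMAD7*, feedback inhibitors of the pathway, and the receptor *TGFBR2* were those of MDS-L cells. *SKIL* was at least 5.32-fold higher with AZA in MDS-L cells and at least 1.38-fold higher in MDS-L/CDA cells, where its call rests on a vehicle signal below background, *SMAD7* had a ratio of 2.74 in MDS-L cells, and *TGFBR2* of 2.05. The receptor *TGFBR1* was called decreased in MDS-L/CDA cells, at 0.400. It had a log2 ratio of −1.27 in MDS-L cells, where it did not pass the rule. The ligand *TGFB1* had log2 ratios of 0.73 and 0.49 and was not called.

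**Figure D3:**
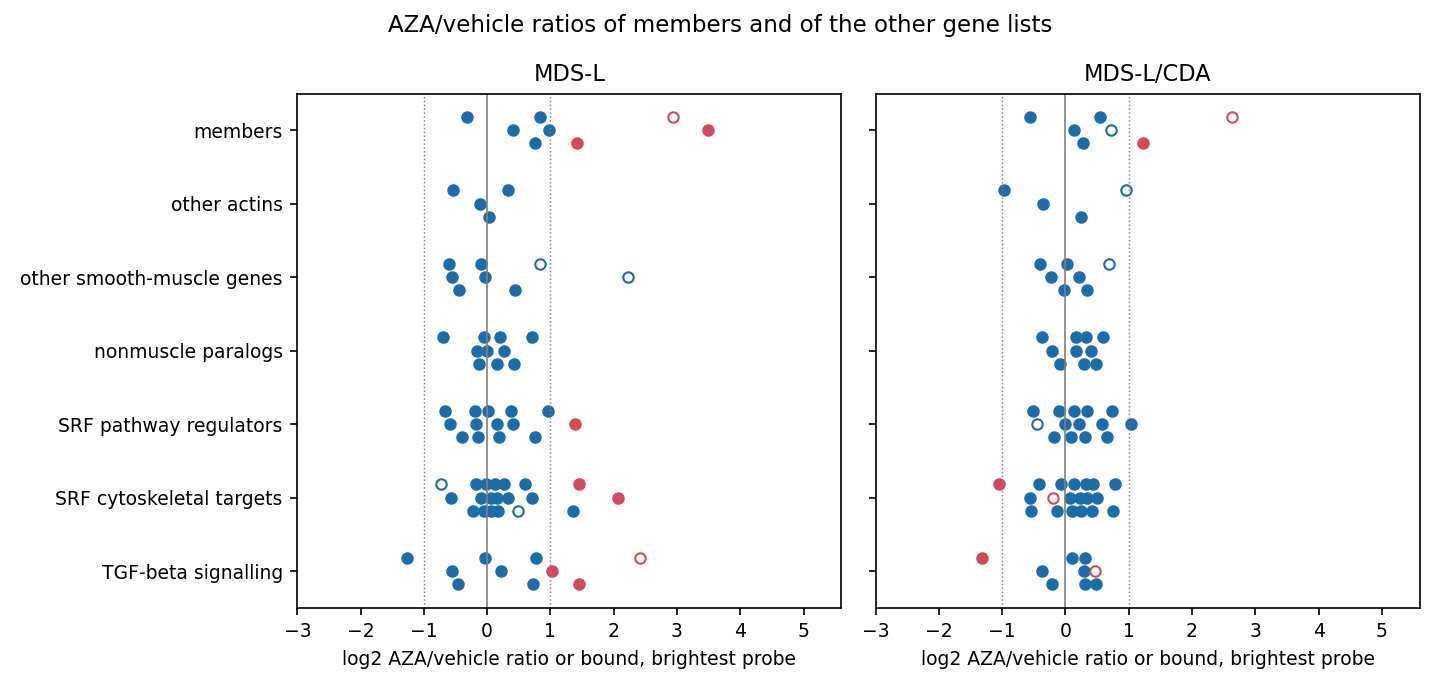
Log2 AZA/vehicle ratio of the brightest probe of each gene, for the 9 members and 6 related gene lists, in MDS-L (left) and MDS-L/CDA cells (right). Each point is a gene, red where at least 1 of its probes was called and open, at its bound, where only 1 array of the pair was well above background. Vertical position within a row only separates points, and dotted lines mark 2-fold. *MYL9* and *ACTG2* lie far to the right in MDS-L cells, while the other actins and the nonmuscle paralogs stay within 2-fold.

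Markers of the cell types that carry these genes were examined beside the members. The label of the lines as blood cells was borne out in that all 8 haematopoietic markers were well above background on all 4 arrays. All 8 fibroblast markers, *COL1A1* and *PDGFRB* among them, were below background on all arrays. Of 8 smooth-muscle and pericyte markers, 4 (*MYH11*, *LMOD1*, *MYOCD* and *CASQ2*) were below background on all arrays, and *DES*, *SMTN* and *NOTCH3* were measured on all of them. *RGS5* was well above background on both arrays of the parent line and on neither of MDS-L/CDA. *NOTCH3* had a ratio of 3.38 with AZA in the parent line and of 0.897 in MDS-L/CDA, and none of the 8 was called. Their summed scaled signal was between 2.52 and 4.14. Probes differ in brightness, so such a sum can be followed from array to array but says nothing of how much of a cell type is present. Of 6 endothelial markers, 5 were below background on all arrays and *PECAM1* was measured, with ratios of 2.22 in MDS-L and 1.02 in MDS-L/CDA cells, neither called. Of 9 megakaryocyte markers, 3 were called increased with AZA in MDS-L cells, namely *PPBP* (ratio 13.0), *VWF* (11.5) and *GP9* (at least 8.18-fold), and 2 in MDS-L/CDA cells, *VWF* (4.78) and *PPBP* (at least 3.17-fold). The rule called 3.88% of all probes increased in MDS-L and 1.98% in MDS-L/CDA cells, counting those well above background on at least 1 array of the pair. *ITGA2B* was measured on all arrays and not called, at log2 ratios of 0.58 and 0.70, and the other 5, *PF4* and *GP1BA* among them, were below background on all arrays. The summed scaled signal of the 9 was 11.3 with vehicle and 28.2 with AZA in the parent line, and 15.1 and 26.5 in MDS-L/CDA. *ITGA2B* supplied most of the rise in MDS-L/CDA cells. The sum without it, added after its values were seen, was 1.29 and 13.2, and 1.38 and 4.09. The part of these markers in the signals of the members was not tested. Of the 8 haematopoietic markers, *KIT* and *GATA2* were called increased in both lines and the other 6 were not called. The median log2 ratio of the 8 was −0.11 in MDS-L and −0.07 in MDS-L/CDA cells, with 4 and 3 of them above a ratio of 1. Of 7 skeletal and cardiac muscle markers, 3 were below background on all arrays. With AZA 0 were called in MDS-L cells, and 1, the muscle creatine kinase gene *CKM*, was called increased in MDS-L/CDA cells. *CKM* had ratios of 2.52 in MDS-L and 2.40 in MDS-L/CDA cells, of which only the latter passed the Z score. It was called lower in MDS-L/CDA than in MDS-L vehicle (0.327). In each line 2 markers of this list were measured on both arrays, and only 1 of the 2 had a ratio above 1.

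The promoters of the genes were read from a set of RefSeq promoters (GRCh38.p14) as the 250 bases before the annotated start. In this set 7 of the 9 genes had an entry, and *TAGLN* and *MYL9* had none. It holds 12 annotated starts of the 7 genes, which need not be all of their starts. Whether a start is the main one of its gene was not examined. A CArG box was counted only as the strict form, CC and GG around 6 bases that are all A or T, which reads the same on both strands. It was found in 3 of the 12 windows, in 3 genes, and in 1.16% of the 35093 promoters of the set. Those of *ACTG2*, *TPM1* and *CNN2* are shown, the first 2 as the genes called increased in both lines and *CNN2* as a gene with a CArG box that was not called, and the CArG boxes are in capitals:

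ACTG2 (GRCh38.p14 chr2:73892758-73893007, plus strand): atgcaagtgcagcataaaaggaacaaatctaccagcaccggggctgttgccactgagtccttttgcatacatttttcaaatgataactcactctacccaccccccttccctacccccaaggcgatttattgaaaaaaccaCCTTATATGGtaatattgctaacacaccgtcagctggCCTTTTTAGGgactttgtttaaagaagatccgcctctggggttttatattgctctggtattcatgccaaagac
TPM1 (GRCh38.p14 chr15:63048239-63048488, plus strand): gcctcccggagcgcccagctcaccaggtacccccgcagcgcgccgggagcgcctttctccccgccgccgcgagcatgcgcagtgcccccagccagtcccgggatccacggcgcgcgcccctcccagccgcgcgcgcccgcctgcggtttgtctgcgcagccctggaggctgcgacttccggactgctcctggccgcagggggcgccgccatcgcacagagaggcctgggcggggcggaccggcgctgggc
CNN2 (GRCh38.p14 chr19:1026358-1026607, plus strand): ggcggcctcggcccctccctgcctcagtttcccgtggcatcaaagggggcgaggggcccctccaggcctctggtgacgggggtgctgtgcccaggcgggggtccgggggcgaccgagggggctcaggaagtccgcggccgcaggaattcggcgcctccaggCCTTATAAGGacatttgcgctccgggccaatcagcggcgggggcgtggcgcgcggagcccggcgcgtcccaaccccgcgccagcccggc

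*ACTG2* had 2 CArG boxes, which began 110 and 73 bases before the start, and *CNN2* had 1, beginning 89 bases before it. *ACTN1* had 1 in a single one of its annotated starts, 171 bases before it, and the strict form was not found in these windows of *TPM1*, *TPM2*, *ACTA2* and *CNN1*. A search added after the strict one counted elements with exactly 1 of the 6 central bases G or C, so without the strict boxes. By it 1 of the 12 windows had a match. It was that of an *ACTA2* start (GRCh38.p14 chr10:88952774-88953023, minus strand), with 2 such elements beginning 121 and 71 bases before the start, beside 5.95% of all promoters. The promoters also differed in CpG dinucleotides, the sites of DNA methylation. *ACTG2* had 4, *CNN2* 28 and *TPM1* 34, against a median of 11 over all promoters. *ACTG2* and *TPM1*, the genes called in both lines, thus had the lowest and the highest CpG count of the member windows read. Each had a single window, and the windows of *ACTN1* ranged from 5 to 25, so the order of the genes depends on which starts were read. Which starts give rise to the transcripts that the probes read was not tested. Methylation was not measured on these arrays, and a match to a motif is a description of the sequence only.

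**Figure D4:**
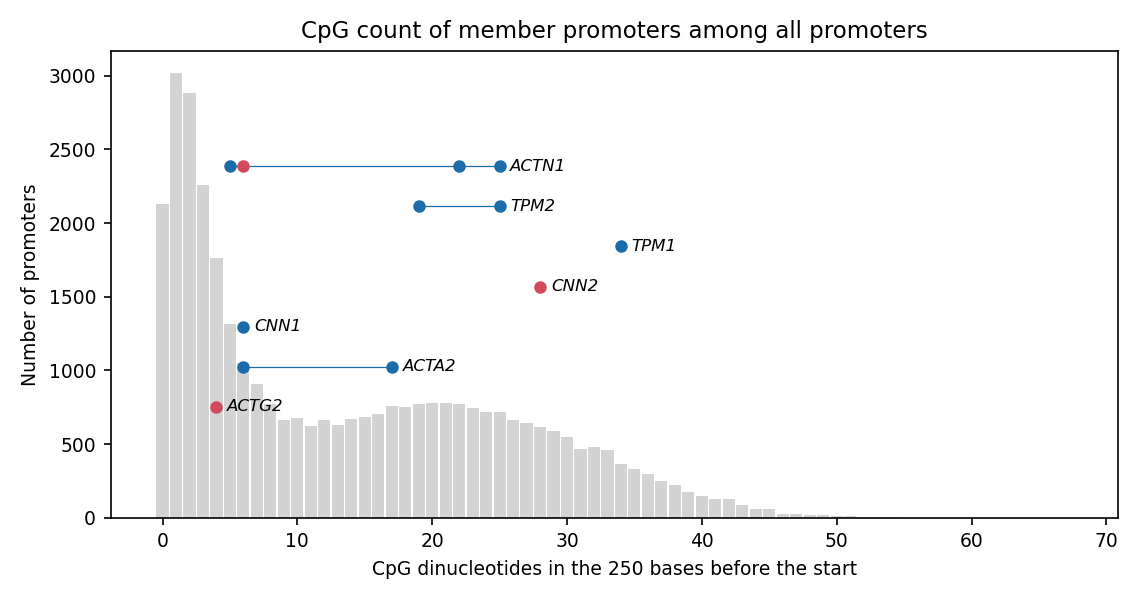
Number of CpG dinucleotides in the 250 bases before the start, for all promoters of the set (grey bars, count on the vertical axis) and for the annotated starts it holds of 7 member genes (points, a line joining the starts of 1 gene, placed at arbitrary heights). Red marks a promoter with a CArG box. *ACTG2* has 4 and *TPM1* 34, on either side of the median of 11.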

How the data were processed

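Total RNA of the 4 cultures was hybridized with a single dye (Cy3) to arrays of 60-base probes. The authors deposited the output of Agilent Feature Extraction 10.7.1.1 for every array, whose processed intensity is background-subtracted within an array and unnormalized between arrays. They also deposited a value table of intensity over 51680 probes, used only as an alternative, which correlates with the scanner values at 0.999 or higher. The labels give 20 ng/mL interleukin-3 and the methods 10 ng/mL.

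Spots of controls and those flagged as outliers were dropped, which removed 16 probes, and no spot was saturated. Spot signals were averaged per probe as log2 and set relative to the array's 75th percentile. Where 1 array of a pair was not well above background, a floor took the place of its signal, namely the smallest flagged signal there or the probe's own value if larger, which gives "at least N-fold". Calls used the signals themselves, also below background. The thresholds of ratio and Z score follow the study's methods, and the bins and the mirrored rule for decreases were chosen here. Levels are not compared between probes, and sums over marker lists are followed only from array to array.

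The members and the 12 gene lists (138 entries, 132 genes) were chosen with earlier results of these data known. Named are all members, the SRF regulators, up to 4 called genes of each other list, the 5 features most like the member probe of widest range, markers of other cell types, and genes marked as chosen after their values were seen. Positions of probes come from the deposited files (hg19), and exons and untranslated regions were not analysed here. Of 14 probe accessions, 12 matched RefSeq. Alternatives covered scaling, background correction, dim probes, the Z score and the choice of probe. Normexp was run with an offset of 50 intensity units in R 4.3.3 (limma 3.58.1), and all else in Python 3.11.15 with numpy 2.4.6, pandas 2.3.3 and matplotlib 3.10.9.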

Additional observations from a re-analysis of the deposited data

Results flagged for a closer look

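In 2 members the AZA/vehicle ratio was above 1 in one line and below 1 in the other. The log2 AZA/vehicle ratio of *ACTA2* was 1.38 higher in MDS-L than in MDS-L/CDA cells, and that of *CNN2* differed by −0.45. *ACTA2* was dim, and with normexp correction its log2 ratios were 0.20 in MDS-L and −0.10 in MDS-L/CDA cells. The 2 directions stayed opposite, and the size of the difference depends on the background correction. The latter ratio was smaller than the spread between spots (0.25), but that spread was taken from signals without this correction. The *CNN2* log2 ratio in MDS-L/CDA cells (0.14) was inside the spread between spots (0.25), so its direction there cannot be told from no change. With 1 array per condition neither difference was tested, and neither gene was called in either line.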

How the results depend on the processing

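No paired analysis was possible because each condition has 1 array. Scaling each array to its median moved the median log2 ratio of all probes by −0.54 in MDS-L cells and by −0.52 between the vehicle arrays, and spike-in scaling moved it by 0.13 in MDS-L cells. The median log2 ratio of the members in MDS-L cells was 0.36 with scaling to the median, 0.61 with normexp and 1.30 with the probe of largest change, and in MDS-L/CDA cells 0.28 when both arrays had to be well above background. The number of members called increased in MDS-L/CDA cells was 1 (*TPM1*) with normexp and 1 (*TPM1*) with both arrays well above background. In MDS-L cells it was 5 at a ratio of 2 (*TAGLN* from a signal below background) and 6 at a ratio of 1.5, both without the Z score. Between the vehicle arrays the number higher in MDS-L/CDA cells was 1 (*ACTA2*) with signals below background set to the floor and 1 (*ACTA2*) at a ratio of 2, and it was 2 higher and 1 lower at a ratio of 1.5. A looser rule also calls more of all probes. Their share was not computed at a ratio of 1.5, nor between the vehicle arrays without the Z score, so nothing is read from those counts. The cause of these shifts was not tested, apart from fewer probes being eligible where both arrays had to be measured. In MDS-L cells *TPM1* lost its call with scaling to the median, and *MYL9* lost it when both arrays had to be measured, which left 2 called genes in each case. *ACTG2* kept its call in MDS-L cells under every alternative run to the calls. Of 193 alternative values of single genes, 138 moved by less than the spread between spots and 55 by more. Part of the 138 could not move. Requiring both arrays to be measured only leaves genes out, and the floor and the median over probes leave many values as they were. The authors' value table also gave values close to those of quantile normalization, so the tally does not measure stability. Signal over background limits *ACTG2*, *TAGLN*, *MYL9* and *CNN1*, and the number of arrays limits all of them.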
